A study of Homo sapiens with 2 samples.

Results

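The nuclear genes of mitochondrial complex I were described by the open chromatin at their transcription start sites (TSSs) in 293T cells, an established line from human embryonic kidney that expresses the large T antigen of SV40. The members were taken by name from GENCODE 44, as protein-coding genes of the nuclear genome with a symbol of NDUFA, NDUFB, NDUFC, NDUFS, NDUFV, NDUFAB or NDUFAF followed by a number and without a hyphen. This rule gave 47 of 20033 protein-coding genes and used no measured value. The assay was ATAC-seq, which maps accessible DNA through the adapters that a transposase, Tn5, places where nucleosomes and other proteins leave the DNA free. Peak lists of 2 libraries of 50000 cells each were analysed, 1 of control cells and 1 of cells grown for 12 h with 0.5 mM methylglyoxal (MGO), a reactive by-product of glycolysis that glycates proteins and DNA. The control carries PBS as its treatment label, while its culture description gives a change of medium only. The comparison asks what 12 h of MGO did to the accessible DNA at these genes. With 1 library per condition there was no replicate error and no test could be made, so all values describe these libraries. The peak names of both lists carry the number 2 and the methods describe consensus peaks of replicates, so further libraries may have been made, which were not analysed here.

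Complex I, or NADH dehydrogenase, is the entry point of electrons from NADH into the respiratory chain. Its N module oxidizes NADH, its Q module passes the electrons over iron-sulfur clusters to ubiquinone, and its membrane arm pumps protons out of the matrix. The catalytic core is completed by subunits that mitochondrial DNA encodes, which were not measured here because mitochondrial reads had been removed by the authors. Around the core lie accessory subunits, and assembly factors act on the intermediates without staying in the finished enzyme. Most of these nuclear genes are expressed together in nearly every cell type, and their promoters are of the broadly active kind, often GC-rich and recognized by NRF1, by the ETS-domain factor GABP or by YY1.

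The deposited lists hold 36142 control and 22884 MGO peaks, of which 23458 and 15738 had a −log10 q of at least 2 and were kept. They carry no read counts, so the depth behind a peak is unknown. The control list is the longer of the 2, and fewer protein-coding genes have a kept peak in the MGO list. As a check of the line, TSS peaks were looked up at genes that 293T cells are known to use. VIM, NEFL, INA and PAX2 had peaks in both lists and NEFM in the control list only. The liver gene ALB and the blood cell genes PTPRC and CD3E had none.

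Most complex I genes had open chromatin at a start site in both libraries. A gene was counted as having a peak when a kept peak lay over, or within 1000 bp of, the TSS of any of its transcripts. In the control list 42 of the 47 members (89.4%, 95% Wilson interval 77.4 to 95.4%) had such a peak, beside 63.3% of all protein-coding genes. In the MGO list 39 members (83.0%, 69.9 to 91.1%) had one, beside 57.8%. The control and MGO peaks overlapped by at least 1 bp at 36 members (76.6%, 62.8 to 86.4%), beside 56.2% of all genes. There was no member with peaks in both lists that did not overlap. These intervals cover counting error only and treat genes as independent, which promoters shared with a neighbouring gene are not.

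The remaining 11 members were split between the lists. A control peak without an MGO peak was found at 6 members, NDUFA4L2, NDUFA6, NDUFB10, NDUFC2, NDUFS8 and NDUFV1, which is 12.8% beside 6.92% of all genes. The reverse, an MGO peak without a control peak, was found at 3 members, NDUFB7, NDUFS5 and NDUFS7, which is 6.38% beside 1.43% of all genes. NDUFA3 and NDUFAF1 had a kept peak in neither list. The balance between the lists depended on their length. When the control list was shortened to its 15738 peaks of highest −log10 p, the length of the MGO list, 33 members had a control peak (70.2%, all genes 55.1%) and 39 an MGO peak. A control peak only was then found at 2 members, NDUFC2 and NDUFS8 (4.26%, all genes 3.15%), and an MGO peak only at 8 (17.0%, all genes 5.84%). The order of the 2 counts was thus the opposite of that in the full lists. In the full lists, of the members with a control peak, 85.7% had an overlapping MGO peak, and of all genes with one 88.8% did, so the share kept was close to the background.

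**Figure D1:**
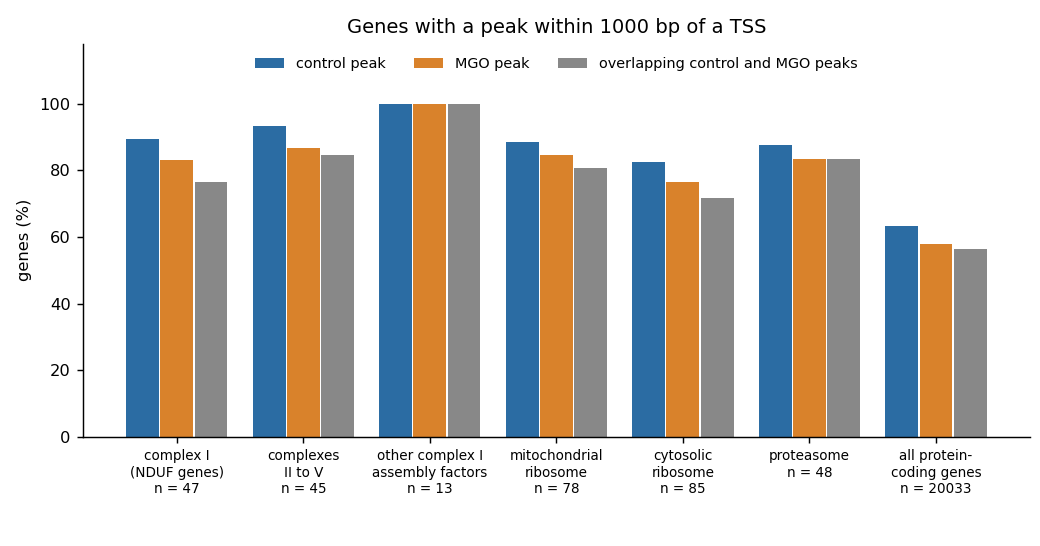
Percent of the genes of each list (y axis) with a kept control peak, a kept MGO peak or overlapping peaks of both within 1000 bp of a TSS, 1 library per condition. Complex I genes stood at 89.4, 83.0 and 76.6%, near the other housekeeping lists and above all protein-coding genes at 63.3, 57.8 and 56.2%.

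The peaks lay over the annotated start. For each gene and list the peak closest to the TSS of the Ensembl canonical transcript was followed. It covered this TSS at 41 of 42 members in the control list (97.6%, all genes 89.4%) and at 39 of 39 in the MGO list (all genes 89.4%). The exception was NDUFA4L2, whose control peak lay 2189 bp upstream of the canonical TSS and 555 bp from the start of another transcript. With positions counted in bp from the TSS and negative upstream, the median edges of the members' peaks lay at −548 and 456 in control and at −495 and 446 in MGO.

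**Figure D2:**
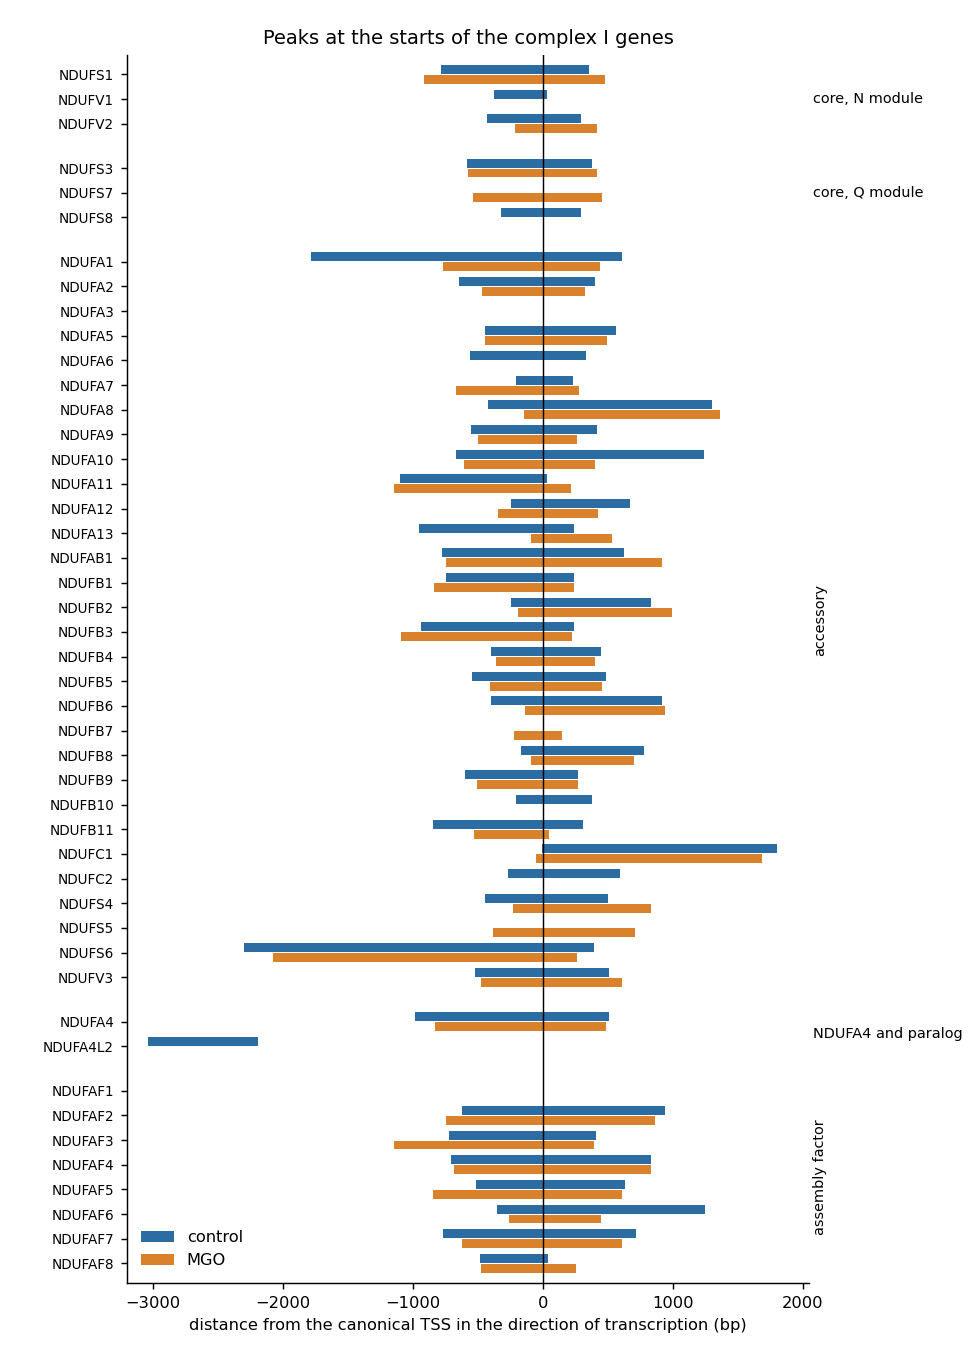
Extent of the followed control (blue) and MGO (orange) peak of the members, 1 row per gene, in bp from the canonical TSS, positive in the direction of transcription, grouped by role. Bars cross the TSS at every gene with a peak except NDUFA4L2, and 6 genes show a control bar only, 3 an MGO bar only and 2 no bar.

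The 7 nuclear core subunits held 3 of the 9 members with a peak in 1 list only. Over all genes 6.92% had a control peak only and 1.43% an MGO peak only. Each of the 3 core subunits had a deposited peak below the threshold in the other list, as given further down. NDUFV1, which binds the flavin that takes the electrons from NADH, had a control peak of 405 bp at chr11:67606563-67606967 (hg38) and no kept MGO peak. NDUFV2, an iron-sulfur protein beside it, had peaks of 725 bp in control and 630 bp in MGO. NDUFS1, the large iron-sulfur subunit of the N module, had peaks of 1139 bp in control and 1394 bp in MGO. The N module therefore held a peak that was absent from the kept MGO list, a narrower one and a wider one.

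In the Q module, NDUFS3 had 961 bp in control and 990 bp in MGO. NDUFS7, which borders the ubiquinone pocket, had an MGO peak of 993 bp and no kept control peak. NDUFS8, an iron-sulfur subunit that links the peripheral arm to the membrane, had a control peak of 621 bp and no kept MGO peak. Each of these thus had a different state, a wider MGO peak, an MGO peak only and a control peak only.

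The 30 accessory subunits support, stabilize and shield the core. Control peaks were found at 27 of them, MGO peaks at 26 and overlapping peaks at 24. Among these 24 the MGO peak was narrower at 16 and wider at 8, with a median width ratio of 0.883. The widest control peak of all members was that of NDUFS6, a zinc-binding subunit of the N module, with 2698 bp in control and 2341 bp in MGO. NDUFA1, a small membrane subunit encoded on the X chromosome, had 2395 bp in control and 1207 bp in MGO. At NDUFA10, a subunit with the fold of a nucleoside kinase, 1904 bp in control stood against 1005 bp in MGO. These wide peaks were thus narrower in the MGO list, by far less at NDUFS6 than at the other 2.

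Of the 8 NDUFAF genes, which encode assembly factors, 7 had overlapping peaks (87.5%, all genes 56.2%) and none had a peak in 1 list only. Over all genes 6.92% had a control peak only and 1.43% an MGO peak only, so none among 8 genes lay near the background. NDUFAF1, which belongs to the complex that assembles part of the membrane arm, was the member without a kept peak. The MGO peak was narrower at 3 and wider at 4 of them, with a median ratio of 1.03. NDUFAF3 and NDUFAF4 act as partners on the Q module. NDUFAF3 had a control peak of 1133 bp and an MGO peak of 1536 bp, and NDUFAF4 had 1533 and 1515 bp. NDUFAF5 and NDUFAF7 are methyltransferase-like proteins, the first of which hydroxylates an arginine of NDUFS7. At NDUFAF5 the widths were 1149 bp in control and 1449 bp in MGO, and at NDUFAF7 they were 1486 and 1226 bp.

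NDUFA4 and NDUFA4L2 carry the family name, but NDUFA4 is now regarded as a subunit of complex IV and NDUFA4L2 is its paralog, known for its induction in hypoxia. NDUFA4 had a control peak of 1491 bp and an MGO peak of 1316 bp. NDUFA4L2 had 1 control peak of 845 bp with the lowest fold enrichment percentile among the members and no deposited MGO peak.

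Peaks in 1 list only were mostly weak, and several had a counterpart below the threshold of the other list. The 6 control-only members had a median −log10 q of 2.54, within a range of 2.07 to 6.47, beside 7.58 for the control peaks of the 36 members in both lists. Over all genes these medians were 3.08 and 7.36. The 3 MGO-only members had −log10 q values of 2.51 to 3.58. A kept control peak of a member had an overlapping kept MGO peak in 5 of 9 cases at a −log10 q of 2 to 3 (all genes 54.3%), in 3 of 4 cases at 3 to 5 (79.7%), in 13 of 14 cases at 5 to 8 (95.2%) and in 15 of 15 cases at 8 or more (99.7%). At each level of control peak strength the share of members lay near that of all genes.

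Weaker peaks that did not reach a q value of 0.01 were looked up in the deposited lists. NDUFV1 had a weaker MGO peak of 312 bp with a q value of 0.0117 beside its control q value of 0.00235. NDUFA6, which holds the acyl carrier protein NDUFAB1 on the enzyme, had a weaker MGO peak of 348 bp at a q value of 0.0122 beside 0.00846 in control. These genes lay on either side of the threshold by a small margin. NDUFS8 had a weaker MGO peak of 378 bp at a q value of 0.0141 beside a control q value of 3.37e-07. Its control peak was the strongest by q value among the 6, and the difference between its q values was the largest of these 3 genes.

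Among the MGO-only members, NDUFS7 had a weaker control peak of 711 bp at a q value of 0.0116 beside 0.000265 in MGO. NDUFS5, a subunit on the intermembrane side of the membrane arm, had a weaker control peak of 972 bp at 0.0259 beside 0.00312 in MGO. NDUFAF1 had a weaker MGO peak of 501 bp at 0.0336 and no deposited control peak. With the weaker peaks counted, 44 members had a control and 43 an MGO peak, and only NDUFA3 had none. The same was not counted over all genes. A deposited peak of the other list was thus missing at NDUFA4L2, NDUFB10 and NDUFC2 in MGO and at NDUFB7 in control.

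NDUFB10, NDUFC2 and NDUFB7 are subunits of the membrane arm, and the 200 bases before their canonical TSS are printed because these are the starts over which 1 library had a peak and the other had none. NDUFB10 had a control peak of 585 bp at chr16:1959334-1959918, with a −log10 q of 2.46. NDUFC2 had a control peak of 861 bp at chr11:78079269-78080129, with a −log10 q of 4.80. NDUFB7 had an MGO peak of 369 bp at chr19:14571917-14572285, with a −log10 q of 2.55. The windows are chr16:1959338-1959537 (plus strand), chr11:78079863-78080062 (minus strand) and chr19:14572067-14572266 (minus strand) of hg38, read 5′ to 3′ in the direction of transcription. Capitals mark matches to the letters of ETS (CCGGAAG) or SP1 (GGGCGGG) sites on either strand, of which NDUFB7 holds 1 each and the other genes none.
NDUFB10: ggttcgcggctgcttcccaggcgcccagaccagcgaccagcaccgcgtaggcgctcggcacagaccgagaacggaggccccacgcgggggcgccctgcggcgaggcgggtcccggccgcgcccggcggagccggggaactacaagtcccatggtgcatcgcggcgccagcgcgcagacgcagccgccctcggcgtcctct
NDUFC2: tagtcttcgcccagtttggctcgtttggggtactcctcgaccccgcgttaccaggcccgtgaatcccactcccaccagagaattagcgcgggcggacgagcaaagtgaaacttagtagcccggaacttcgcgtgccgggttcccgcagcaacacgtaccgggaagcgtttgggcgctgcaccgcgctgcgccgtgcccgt
NDUFB7: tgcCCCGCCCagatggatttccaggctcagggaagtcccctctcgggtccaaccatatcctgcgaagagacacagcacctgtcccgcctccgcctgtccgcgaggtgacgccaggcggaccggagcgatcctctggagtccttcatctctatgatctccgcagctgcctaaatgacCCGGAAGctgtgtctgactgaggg

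The members with a peak in 1 list only were also looked up by chromosome. Of the 4 members on chromosome 11, NDUFC2, NDUFS8 and NDUFV1 had a control peak only, and NDUFS3 had peaks in both lists. Over all 1317 protein-coding genes of that chromosome 7.52% had a control peak only. Of the 6 members on chromosome 19, NDUFB7 and NDUFS7 had an MGO peak only, against 2.98% of the 1476 genes there. This grouping was noticed after the values were seen, and the 3 control-only genes of chromosome 11 lie at separate places, none sharing a peak with another member.

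Widths were compared at the 36 members whose followed peaks overlapped. The MGO peak was narrower at 22 of them (61.1%) and wider at 14, beside 67.0% narrower over 11135 such genes. The median ratio of MGO to control width was 0.896 for members, with a middle range (quartiles) from 0.823 to 1.10, and 0.910 for all genes. Median widths at these members were 1134 bp in control and 1069.5 bp in MGO. The values of the members lay close to those of all genes.

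The spread among members was wide. The smallest ratios were 0.443 at NDUFAF6, an assembly factor of the Q module, 0.502 at NDUFB11, a membrane arm subunit encoded on the X chromosome, and 0.504 at NDUFA1. NDUFAF6 had 1601 bp in control and 709 bp in MGO, and NDUFB11 had 1154 and 579 bp. The largest ratios were 2.17 at NDUFA7, 1.41 at NDUFAF8 and 1.36 at NDUFAF3. NDUFA7, an accessory subunit of the peripheral arm, had 440 bp in control and 953 bp in MGO. NDUFAF8, which stabilizes NDUFAF5, had 521 bp in control and 733 bp in MGO. The 3 narrowest control peaks of all members were those of NDUFV1, NDUFA7 and NDUFAF8, so those of the 3 that had an MGO peak were also the members with the largest ratios.

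**Figure D3:**
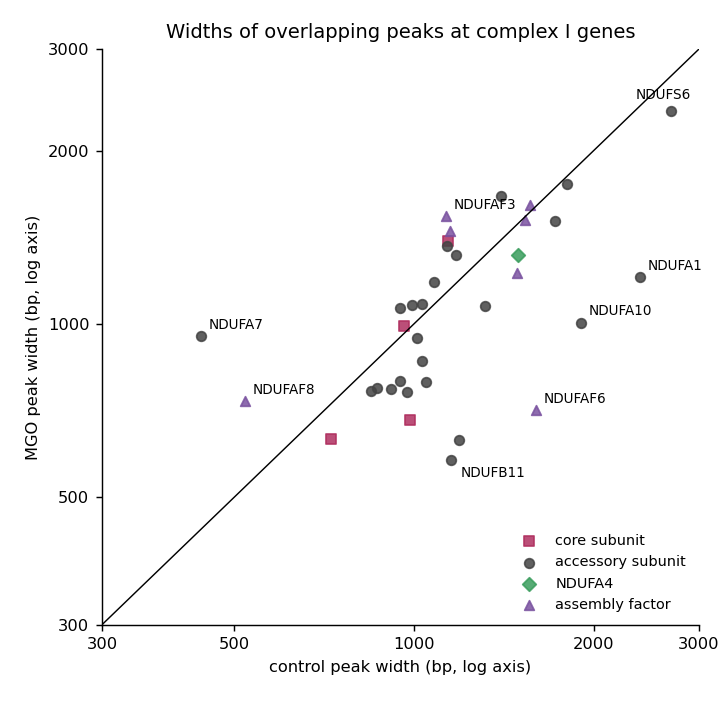
Control peak width (x axis, bp, log scale) against MGO peak width (y axis, bp, log scale) at the 36 members with overlapping peaks, 1 point per gene, with the line of equal width. There are 22 points under the line and 14 above it, and NDUFA7 at 440 and 953 bp lies farthest above.

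The change in width fell on different sides of the TSS at different genes. At NDUFA1 the upstream edge lay at −1786 bp in control and −767 bp in MGO, while the downstream edge lay at 608 and 439 bp. At NDUFA10 the upstream edge lay at −666 and −603 bp and the downstream edge at 1237 and 401 bp. At NDUFA7 the upstream edge moved the other way, from −206 bp in control to −670 bp in MGO. Over the 36 members the upstream edge lay closer to the TSS in MGO at 25 and the downstream edge at 21. The median shifts toward the TSS were 57 bp upstream and 18.5 bp downstream, beside 64 and 28 bp for all genes.

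Fold enrichment over background was compared only within a list, as the percentile of a peak among all kept peaks of that list. The median member stood at percentile 60.9 in control and 41.7 in MGO, and the median over all genes with a peak at 62.6 and 53.4. Among the 36 members with overlapping peaks the percentile was lower in MGO at 24 (66.7%) and higher at 12, beside 63.7% lower over all genes. Their median change was −4.99 points and that of all genes −5.44. The 2 lists differ in length, and a rank moves with the peaks that a list holds. With the control list shortened as above, the percentile was lower in MGO at 16 of 31 members (51.6%, all genes 46.3%), with a median change of −0.67 points for members and 1.36 for all genes. The lower ranks in MGO over the group were therefore not seen in lists of equal length. In the full lists the change was under 10 points either way at 20 of the 36 (55.6%, all genes 41.7%). It was a gain of 10 points or more at 2 (5.56%, all genes 16.7%). In lists of equal length more members had such a gain, among them NDUFB1, NDUFB3 and NDUFA8, with 30.9, 17.8 and 16.2 points. Falls of 10 points or more were found there too, among them NDUFB5, NDUFV2 and NDUFA2, with −52.8, −42.1 and −39.2 points. The share of such gains over all genes was not computed for lists of equal length.

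The strongest control peaks by this rank were those of NDUFS4 at percentile 98.5, NDUFB6 at 96.3 and NDUFV2 at 95.1. NDUFS4 is an accessory subunit of the N module whose loss is a known cause of Leigh syndrome. It kept a high rank, 93.4, in MGO, where its fold enrichment was 4.43 after 5.33 in control. NDUFB6, a membrane arm subunit, stood at 85.9 in MGO. NDUFV2 was the exception, at 50.6 in MGO, with fold enrichments of 4.78 in control and 3.35 in MGO. In the MGO list the highest members were NDUFA4 at 94.8, NDUFS4 and NDUFB4 at 92.5. NDUFB4, a membrane arm subunit, had 92.0 in control and so hardly differed between the lists.

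The lowest ranks belonged to NDUFA4L2 at percentile 0.565, NDUFB10 at 1.82 and NDUFAF8 at 3.05 in control. In MGO, NDUFAF3 at 2.02 and NDUFS7 at 7.32 were among the lowest. NDUFAF3 stood at 6.79 in control and so was low in both lists, although its peak was wider in MGO.

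The largest differences in rank between the full lists, lower in MGO, were at NDUFB5, with 87.1 and 27.97, NDUFA2, with 83.6 and 36.3, and NDUFV2. In lists of equal length the control ranks were 80.7 at NDUFB5, 75.6 at NDUFA2 and 92.7 at NDUFV2, with the same MGO ranks. NDUFB5 is a membrane arm subunit whose peak had 1032 bp in control and 861 bp in MGO, with fold enrichments of 4.32 and 3.06. NDUFA2, a thioredoxin-like subunit of the N module, had 1048 and 792 bp and fold enrichments of 4.19 and 3.16. Both genes share their peak with a neighbouring gene on the opposite strand. The largest differences the other way were at NDUFAF6, with 44.01 and 86.7, NDUFA13, with 16.8 and 34.9, and NDUFB1, with 54.2 and 64.1. NDUFA13 is also known as the cell death regulator GRIM-19, and its peak had 1191 bp in control and 629 bp in MGO. At NDUFAF6 and NDUFA13 a higher rank went with a narrower peak.

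**Figure D4:**
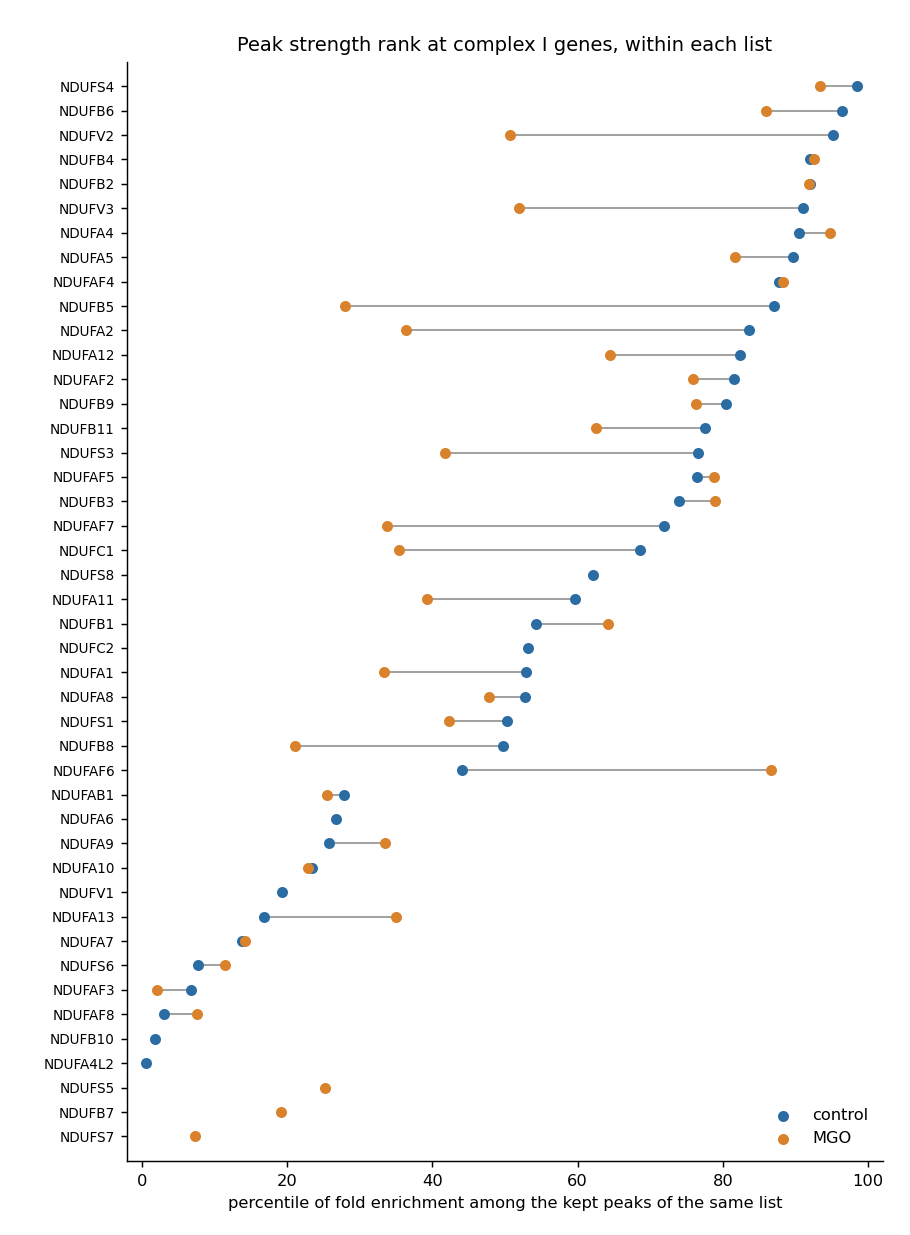
Percentile of fold enrichment within its own list (x axis) for the followed control (blue) and MGO (orange) peak of members with a kept peak, 1 row per gene, ordered by the control value, with a line between the 2 peaks of a gene. The MGO point lies left of the control point at most genes, farthest at NDUFB5, and farthest right at NDUFAF6, in lists of 23458 and 15738 peaks. In lists of equal length it was lower at 16 of 31 genes.

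NDUFAF6, NDUFC1, NDUFS3 and NDUFV3 had more than 1 peak in each list, because they have annotated transcripts that start far apart. NDUFC1, a small membrane subunit, had control peaks of 1805 bp at the canonical TSS and 1100 bp at another start, and MGO peaks of 1746 and 826 bp. The nearest edge of the distant control peak lay 6137 bp from the canonical TSS. At NDUFS3 the peak away from the canonical TSS had 869 bp in control and 847 bp in MGO. NDUFV3, an accessory subunit with a long and a short isoform, had 878 bp in control and 1013 bp in MGO at its upstream start. NDUFAF6 had 3 peaks in each list, and the 2 away from the canonical TSS had 1846 and 1300 bp in control and 1917 and 1383 bp in MGO. The narrower MGO peak of NDUFAF6 was therefore found at the canonical start alone. The canonical starts of other genes lie in these distant peaks at NDUFS3 (PTPMT1), NDUFV3 (WDR4) and NDUFAF6 (TP53INP1 and CCNE2), so that such a peak cannot be credited to the member alone.

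Many complex I genes share their start region with another gene. A TSS of another protein-coding gene lay within 1000 bp of a TSS of 28 of the 47 members (59.6%), beside 23.3% of all protein-coding genes. For 27 of the 28 a neighbour was on the opposite strand, as in a bidirectional promoter. The nearest starts of all, 2, 4 and 10 bp from those of NDUFA13, NDUFA7 and NDUFB8, belong to overlapping gene models on the same strand. Leaving such models aside, the closest canonical starts were those of TATDN1, 38 bp from NDUFB9, CEBPZ, 62 bp from NDUFAF7, and AKAP3, 63 bp from NDUFA9. Other pairs join the chain to the mitochondrial ribosome. MRPL47 starts 156 bp from NDUFB5 on the opposite strand, and MRPL36 has a start 41 bp from a start of NDUFS6. A peak at such a place is shared by both genes and cannot be credited to either.

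Peaks in both lists were then counted for members with and without a neighbouring TSS. Of the 28 with a neighbour, 25 (89.3%) had overlapping peaks, NDUFC2 had a control peak only and none had an MGO peak only. Of the 19 without a neighbour, 11 (57.9%) had overlapping peaks, 5 a control peak only and 3 an MGO peak only. Over all genes overlapping peaks were found at 74.8% with and 50.6% without a neighbour. Control-only peaks were found at 7.41 and 6.77%, and MGO-only peaks at 1.46 and 1.42%. The neighbour of NDUFC2 is the readthrough gene model NDUFC2-KCTD14 on the same strand. None of the 9 members with a peak in 1 list only thus had another protein-coding gene starting on the opposite strand within 1000 bp. Starts of other types of gene were not looked up. Ranks ran the other way, with median percentiles of 85.0 in control and 73.1 in MGO for members without a neighbour and 53.7 and 36.3 for those with one. Over all genes these medians were 62.6 and 54.7 without a neighbour and 62.7 and 50.8 with one.

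The sequence of the starts was examined in the window from 250 bp before to 50 bp after the canonical TSS of hg38, with fixed letters searched on both strands. None of the 6 strings contains another, and the NRF1 letters can overlap their own reverse complement. A match is a description of letters and not a bound site. The letters AAGATGGC, the core of YY1 sites, occurred in 10 of 47 member promoters (21.3%), beside 4.04% of all protein-coding promoters and 5.41% of those of genes with a control peak. The letters GCGCATGC of NRF1 sites occurred in 8 (17.0%), beside 4.27 and 5.76%. The ETS letters CCGGAAG occurred in 10 (21.3%), beside 14.1 and 18.98%. At least 1 of these 3 was found in 23 members (48.9%), beside 20.4% of all genes and 27.2% of genes with a control peak. The letters GGGCGGG of SP1 sites occurred in 15 (31.9%), beside 47.1 and 58.5%. CCAAT, the NF-Y letters, occurred in 12 (25.5%), beside 36.1 and 36.6%, but in 25 (53.2%), beside 52.8 and 52.1%, in a window from 500 bp before to 100 bp after the TSS. TATAAA occurred in 3 (6.38%), beside 9.71 and 5.06%. Median GC content was 61.0% in members, 63.7% in all promoters and 66.7% in those of genes with a control peak.

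**Figure D5:**
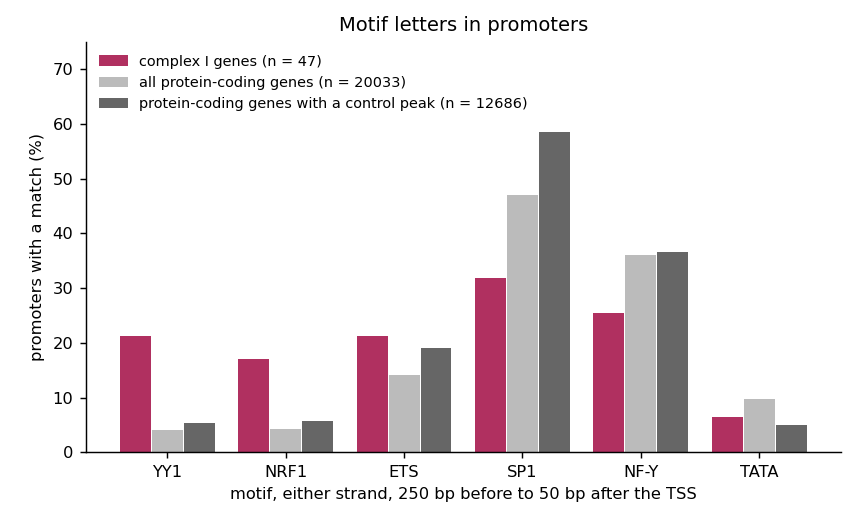
Percent of promoters with at least 1 match to the letters of each motif on either strand (y axis), for the 47 complex I genes, all 20033 protein-coding genes and the 12686 with a control peak. YY1 and NRF1 letters were found in 21.3 and 17.0% of members against 4.04 and 4.27% of all genes, and SP1 letters in 31.9% against 47.1%. The smaller share of NF-Y letters in members was not seen in the window from 500 bp before to 100 bp after the TSS.

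The YY1 letters had a fixed place. All 10 matches read AAGATGGC on the gene's own strand, and 9 began after the TSS, at bases 10 to 26 counted from the TSS as 1. Over the 810 promoters of all genes with the letters, 74.4% held them on the gene strand and 57.3% on the gene strand after the TSS. In 8 of the 10 members the ATG within the match was an annotated start codon, so the match spans the start of the reading frame. The exceptions were NDUFAF8 and NDUFB5, the latter with its match at −71 bp. Sites are printed with 10 bases on either side, on the strand of the gene, with the match in capitals. They come from a core subunit (NDUFS7), accessory subunits and an assembly factor. The capitals are the same at every site because only exact matches were searched. Their positions in hg38 are chr19:54102866-54102893 for NDUFA3 (plus strand), chr22:42090730-42090757 for NDUFA6 (minus), chr19:8321344-8321371 for NDUFA7 (minus), chr12:4649114-4649141 for NDUFA9 (plus), chr17:81239317-81239344 for NDUFAF8 (plus), chr3:179604713-179604740 for NDUFB5 (plus), chr10:100529837-100529864 for NDUFB8 (minus), chr5:53560650-53560677 for NDUFS4 (plus) and chr19:1383914-1383941 for NDUFS7 (plus).
NDUFA3: cgcggagacaAAGATGGCtgcgagtaag
NDUFA6: atgctttggcAAGATGGCggggagcggc
NDUFA7: tcgcggacggAAGATGGCgtccgccacc
NDUFA9: attgtgggaaAAGATGGCggctgccgca
NDUFAF8: ggacggacctAAGATGGCggcctccagg
NDUFB5: gccctcacttAAGATGGCcacatcctgc
NDUFB8: gaagaaggtgAAGATGGCggtggccagg
NDUFS4: tgcctgcagcAAGATGGCggcggtgtca
NDUFS7: ggccgaggccAAGATGGCggtgctgtca

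Of the 10 sites, 8 lay in a kept control peak and 8 in a kept MGO peak. Those of NDUFA7, NDUFA9, NDUFAF8, NDUFB5, NDUFB8 and NDUFS4 lay in peaks of both lists. That of NDUFA6 lay in a control peak only, that of NDUFS7 in an MGO peak only, and that of NDUFA3 in neither. The genes that hold the letters therefore include the highest control rank among the members, NDUFS4, as well as a gene without any deposited peak.

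The NRF1 letters had their first base between −166 and 7 bp of the TSS, and 1 of the 8 sites began after the TSS. The window holds 250 bp before the TSS and 50 bp after it, so most of it is upstream. On the gene strand after the TSS the letters lay in 1 of these 8 promoters (12.5%), beside 4.32% of the 856 with the letters over all genes. They are printed in the same way, 10 bases on either side, each on the strand that reads the letters as GCGCATGC, because their share in members, 17.0%, stood farther above the 5.76% of genes with a control peak than that of any letters but those of YY1. The positions are chr7:123557959-123557986 for NDUFA5 (minus strand), chr22:42090921-42090948 for NDUFA6 (plus), chr9:122159766-122159793 for NDUFA8 (minus), chr6:96897868-96897895 for NDUFAF4 (minus), chr20:13785014-13785041 for NDUFAF5 (plus), chr3:120596167-120596194 for NDUFB4 (plus), chr5:1801351-1801378 for NDUFS6 (plus) and chr19:1383824-1383851 for NDUFS7 (minus).
NDUFA5: tatgcccatcGCGCATGCgtcaattttt
NDUFA6: ggtgggtgctGCGCATGCtcatctacag
NDUFA8: gttgccggatGCGCATGCgcaggcgccg
NDUFAF4: cctcacttgtGCGCATGCtccgggtgtc
NDUFAF5: agccgcgctgGCGCATGCgcacaaaaag
NDUFB4: agagcacttcGCGCATGCgcatatcacc
NDUFS6: cagaagccgtGCGCATGCgttagcgcta
NDUFS7: gcggctcggaGCGCATGCggaaaccgga

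The site of NDUFA6 lay in a control peak only and that of NDUFS7 in an MGO peak only, and the other 6 lay in kept peaks of both lists. NDUFA6 and NDUFS7 were the members that held both the NRF1 and the YY1 letters, and both had a kept peak in 1 list and a weaker one in the other. Members with peaks in both lists held the YY1 letters in 7 of 36 promoters and the NRF1 letters in 6. The 11 members with a peak in 1 list or none held them in 3 and 2.

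The other genes of respiration gave a similar picture. Of 45 genes of complexes II to V, 42 had a control peak, 39 an MGO peak and 38 overlapping peaks, which is 84.4% beside 76.6% of the complex I genes. In these complexes CYC1, UQCR11, COX6C and COX7B were the 4 genes with a control peak only, and ATP5MF was the 1 gene with an MGO peak only. The MGO peak was narrower at 19 of 38 and the median width ratio was 0.974. All 13 complex I assembly factors with other names, such as ACAD9, FOXRED1 and NUBPL, had overlapping peaks, with a narrower MGO peak at 10 and a median ratio of 0.815. All 11 genes for regulators of nuclear mitochondrial genes had overlapping peaks as well, among them NRF1, with 1302 bp in control and 1089 bp in MGO, and GABPA, with 1774 and 1873 bp. The peaks of GABPA had the same widths and fold enrichments as those of ATP5PF of complex V, so they cannot be credited to either gene. The coactivator gene PPARGC1A had 1480 bp in control and 350 bp in MGO. The ETS letters occurred in 40% of the promoters of complexes II to V, against the 21.3% of complex I. YY1 letters occurred in 7 of these 45 promoters (15.6%) and NRF1 letters in 8 (17.8%), beside 21.3 and 17.0% in complex I. The high shares of YY1 and NRF1 letters were thus not particular to complex I. Among larger sets with housekeeping functions, overlapping peaks were found at 80.8% of 78 mitochondrial ribosomal protein genes, 71.8% of 85 cytosolic ribosomal protein genes and 83.3% of 48 proteasome genes. Narrower MGO peaks made up 80.6, 45.8 and 60% of their pairs, so the 61.1% of complex I lay within the range of these sets.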

How the data were processed

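ATAC-seq was analysed for 1 control and 1 MGO library of 293T cells. According to the methods, the authors aligned 50 bp paired reads to GRCh38.p12 with BWA-MEM (BWA 0.7.15 in the submitters' processing notes), used Picard to drop reads of mitochondrial DNA and reads with several mapping places, subsampled reads at random to equal depth, and called broad peaks in each sample with MACS2 outside blacklisted regions. The MACS2 version and settings are not given in the sources used here. The deposited lists give for each peak a ratio, which is the fold enrichment over background, the −log10 p-value, the −log10 q-value and a score, which was not used. No read counts are in the lists, so the depth behind a value is unknown. Subsampling and the caller's threshold both affect which weak peaks are listed.

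Peaks on chromosomes 1 to 22, X and Y with a −log10 q of at least 2 were kept, after the q value of 0.01 in the methods. TSSs were those of GENCODE 44 transcripts, and a peak was assigned at up to 1000 bp. Widths and percentiles used 1 peak per gene and list, the one closest to the Ensembl canonical TSS. Peaks overlapped from 1 bp. Sequences were read from hg38. No test was made, and intervals of shares are 95% Wilson intervals. The alternatives were other peak thresholds, equal numbers of peaks, TSS windows of 500 and 2000 bp, canonical starts only, 50% overlap, other choices of members or of the peak per gene, and other promoter windows, besides 3 chosen after seeing the data. The members, lists and the rule for named genes were chosen with earlier results of these data known. Named were members with a peak in 1 list or none, the core subunits, the 3 most extreme widths, ratios, ranks and changes of rank, members with several peaks, and the 3 closest neighbouring starts. The values of 1 member are not reported here on their own, and it is counted in the totals. Python 3.11.15, numpy 2.4.6, pandas 2.3.3 and matplotlib 3.10.9 were used. The assignment was tested on simulated data and checked against bedtools 2.31.1.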

Additional observations from a re-analysis of the deposited data

How the results depend on the processing

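The main counts and medians were recomputed in the alternative settings, which gave 95 values. A value was called near when it lay inside the 95% interval of the main value and, for shares, also within a factor of 1.5 of it. No median width ratio reversed, 70 values stayed near the main one and 25 moved, most of them with the peak threshold or the length of the lists. With equal numbers of peaks in the lists 70.2% of members had a control peak, 4.26% a control peak only and 17.0% an MGO peak only, so that the order of the last 2 turned. Over all genes these shares were 55.1, 3.15 and 5.84%. With all deposited peaks 91.5% had an MGO peak, 87.2% overlapping peaks and 6.38% a control peak only. At a −log10 q minimum of 5, 61.7% had a control peak, 36.2% an MGO peak, 36.2% overlapping peaks, 25.5% a control peak only and 0% an MGO peak only. At a minimum fold enrichment of 4 these were 31.9, 14.9, 12.8, 19.1 and 2.13%. The intervals are wide, and some values called near still differed from the main ones. At the −log10 q minimum of 5 the median width ratio was 0.988, beside 0.896 in the main setting. The median percentiles there were 50.8 in control and 54.2 in MGO, the opposite order to the main 60.9 and 41.7. Without neighbouring TSSs 57.9% had overlapping peaks, 26.3% a control peak only and 15.8% an MGO peak only, and the median percentiles were 85.0 in control and 73.1 in MGO. Ranked among TSS peaks, the control percentile was 49.6. When the weaker peaks of the opposite list were counted too, a setting chosen after seeing the data, 87.2% had overlapping peaks, 6.38% a control peak only and 2.13% an MGO peak only. Shares over all genes were not computed for the other peak thresholds, for all deposited peaks or for the weaker peaks of the opposite list. Those member shares therefore stand without a background. Of 12 motif values 8 stayed near. In the smaller window the NRF1 share was 10.6% and the SP1 share 14.9%, and in the larger window the NF-Y share was 53.2% and the TATA share 14.9%. No paired analysis was possible because there was 1 library per condition, and for the same reason no library could be left out. The depth behind each peak is unknown, so an absent peak means that none was detected at the threshold used.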
